A study of Mus musculus with 8 samples.

Results

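The complement system is a set of plasma and membrane proteins that tags particles and cells for removal, and most of its plasma proteins are classically known from the liver. In the classical pathway C1q binds a target and its proteases C1r and C1s cleave C4 and C2. In the lectin pathway the MASP proteases do so, and the alternative pathway amplifies C3 cleavage through factors B and D. All 3 routes meet at C3, and C5 to C9 then form the membrane attack complex. Fat is itself a source, since adipsin (factor D, Cfd) was first described as an adipocyte product, while C1q and the anaphylatoxin receptors are known from macrophages.

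Values of 32 genes of components, regulators and receptors were examined, of 24821 genes in the table. They were chosen by symbol, and each symbol matched 1 row through GENCODE M21, so all 32 were found. By role, 11 belong to the classical and lectin pathways, 4 to the alternative pathway with C3, 4 to the terminal pathway, 7 are regulators and 6 are receptors or binding proteins. All 32 reached a normalized count of 10 in at least 4 of the 8 libraries and entered the test.

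Total RNA of epididymal white adipose tissue, the gonadal fat of male mice, had been sequenced from 4 wild type (WT) and 4 Ccdc92 KO libraries, both on a C57BL/6 background. The KO group was labelled only as knockout of Ccdc92, a coiled-coil protein gene, with no word on the deleted part or on a tissue restriction. WT animals were littermates of the same age, and their age is not given in the sources used here. Both groups had eaten a diet with 60% of its calories as fat and 20% each as protein and carbohydrate, over 14 weeks. The question put to these groups here is which complement genes differed between them.

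Recovered reads per library ran from 23681088 to 33817478. In WT libraries Ccdc92 ran from 54.1 to 105.8 normalized counts (reads divided by a library size factor), and in KO libraries from 4.9 to 9.7. Adipocyte markers were present throughout, with Adipoq at 12578.3 or more in every library. One WT library stood apart for liver transcripts: albumin (Alb) was 35472.2 in WT replicate 3, 31.2 to 61.5 in the other WT libraries and 407.5 to 843.4 in KO. The sum of 6 hepatocyte markers was 51709.0 in WT replicate 3, 67.9 to 124.1 in the other WT libraries and 453.6 to 1350.2 in KO. The labels' protocol also names liver RNA. Epididymal markers summed to 31953.8 to 105961.0 in WT and 9.7 to 755.7 in KO. Values that rest on WT replicate 3 are given below with and without it.

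In limma's comparison, with a threshold of 0.05 on the adjusted p, 14 of the 32 genes passed. In KO, 5 of them rose and 9 fell. In 14 genes the 4 libraries of one group lay entirely apart from those of the other. Among all 17798 genes tested, 41.7% passed, 20.2% higher and 21.5% lower, and 42.1% did not overlap, so the count of called complement genes is near the background. Quantile normalization, which moved the median of all genes from -0.01 to 0.10 on the log2 scale, left 5 higher and 10 lower members. Over all genes that scaling turned 3592 higher and 3831 lower calls into 4593 and 3257. The median log2 fold change was -0.29 over the 32 genes and -0.01 over all genes tested. A fitted difference of at least 2-fold was found in 10 called members, 3 higher and 7 lower, where 17.2% of all genes tested had one in either direction. Without WT replicate 3 the counts were again 5 higher and 9 lower, while over all 17798 genes 5641 passed, against 7423 with that library. The nearness to the background stated above therefore refers to the fit on all 8 libraries.

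Stretches of 250 bases before the RefSeq start (GRCm38.p6) are shown for C1qb, Cfd and C5ar2, called members of 3 different roles whose window holds no part of the GENCODE gene. Capitals mark matches on either strand to GAGGAA, the core bound by the macrophage factor PU.1, or to TTGCNNAA, a C/EBP motif. C/EBP factors are known from adipocytes and myeloid cells.
C1qb, chr4:136886201-136886450, minus strand: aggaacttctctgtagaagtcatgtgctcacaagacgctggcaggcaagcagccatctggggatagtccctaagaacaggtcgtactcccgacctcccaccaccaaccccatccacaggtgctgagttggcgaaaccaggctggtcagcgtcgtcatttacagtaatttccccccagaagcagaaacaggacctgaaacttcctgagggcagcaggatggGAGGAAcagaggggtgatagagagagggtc
Cfd, chr10:79890603-79890852, plus strand: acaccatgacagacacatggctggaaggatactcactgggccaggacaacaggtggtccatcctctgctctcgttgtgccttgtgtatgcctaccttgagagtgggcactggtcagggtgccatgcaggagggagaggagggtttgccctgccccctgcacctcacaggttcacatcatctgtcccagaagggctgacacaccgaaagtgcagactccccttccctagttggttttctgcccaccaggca
C5ar2, chr7:16244155-16244404, minus strand: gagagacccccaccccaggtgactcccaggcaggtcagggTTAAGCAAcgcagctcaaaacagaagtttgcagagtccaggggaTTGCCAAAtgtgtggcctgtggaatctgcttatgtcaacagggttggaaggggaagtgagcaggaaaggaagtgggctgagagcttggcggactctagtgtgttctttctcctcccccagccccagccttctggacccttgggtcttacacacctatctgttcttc
The window of C1qb held the first motif, that of C5ar2 the C/EBP motif, and that of Cfd neither, which says only that these letters are not in this window. Of the 21 members with a start in the RefSeq table, 4 had GAGGAA in at least 1 window and 4 had TTGCNNAA. C5ar2 was among those with GAGGAA, in a window other than the one shown. Of all 32851 windows of this length, 23.3% and 9.56% held these motifs. Those are shares of windows, not of genes, so they are not directly comparable with the counts of members. These matches are a description of the sequence, not evidence of binding.

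The chains of C1q, the molecule that starts the classical pathway, all fell. C1qa, C1qb and C1qc lie next to each other on the minus strand of chromosome 4 (GRCm38), with C1qb at 136880129 to 136886187, C1qc at 136889804 to 136893065 and C1qa at 136895917 to 136898803. C1qa had normalized counts of 11824.3, 9582.1, 11313.2 and 12026.1 in WT replicates 1 to 4 and of 7760.0, 5681.0, 4673.6 and 4454.4 in KO replicates 1 to 4. Every KO library was below every WT library, and the log2 fold change was -1.02 (limma adjusted p = 0.00278, SE 0.18). C1qb was 24391.5, 17400.5, 21000.0 and 21803.2 in WT and 9993.9, 8297.6, 6640.7 and 5464.7 in KO, a log2 fold change of -1.50 (limma adjusted p = 0.00085, SE 0.19). C1qc was 14207.5, 10994.8, 12916.3 and 13286.4 in WT and 6371.9, 5147.8, 4364.1 and 4288.3 in KO, a log2 fold change of -1.36 (limma adjusted p = 0.00049, SE 0.15). Neither of these chains overlapped between groups. In bulk tissue, fewer cells of a type and less RNA per cell cannot be told apart.

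Proportions between the chains were compared within each library. The ratio of C1qb to C1qa was 2.06, 1.82, 1.86 and 1.81 in WT replicates 1 to 4 and 1.29, 1.46, 1.42 and 1.23 in KO replicates 1 to 4. That of C1qc to C1qa was 1.10 to 1.20 in WT against 0.821 to 0.963 in KO, again without overlap, whereas that of C1qb to C1qc overlapped (1.58 to 1.72 and 1.27 to 1.61). Ratios to macrophage markers depended on the marker. C1qb to Adgre1, the macrophage antigen F4/80, was 1.24 to 1.88 in WT libraries and 2.16 to 3.60 in KO libraries. C1qb to Mertk, an efferocytosis receptor, was 10.9 to 12.2 in WT libraries and 5.96 or less in KO libraries. Over the list of 8 macrophage markers, the ratio of C1qb was higher in KO without overlap for 4 (Adgre1, Cd68, Fcgr1 and Trem2), lower for 1 (Mertk) and overlapping for 3 (Csf1r, Cd14 and Lyz2). C1qa and C1qc gave the same counts. Enumerating all 70 splits, a two-sided exact permutation test returned its smallest possible p = 0.0286 for C1qb to C1qa, C1qc to C1qa and C1qb to Adgre1 (adjusted p = 0.0762 over 16 ratios), and p = 0.0571 for C1qb to C1qc (adjusted p = 0.114). The ratios were chosen after the values had been seen, and those to the other markers were not tested. None passes the adjusted threshold of 0.05. With 70 splits a ratio could pass it only if most of the 16 reached the smallest possible p, so that outcome decides little.

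**Figure D1:**
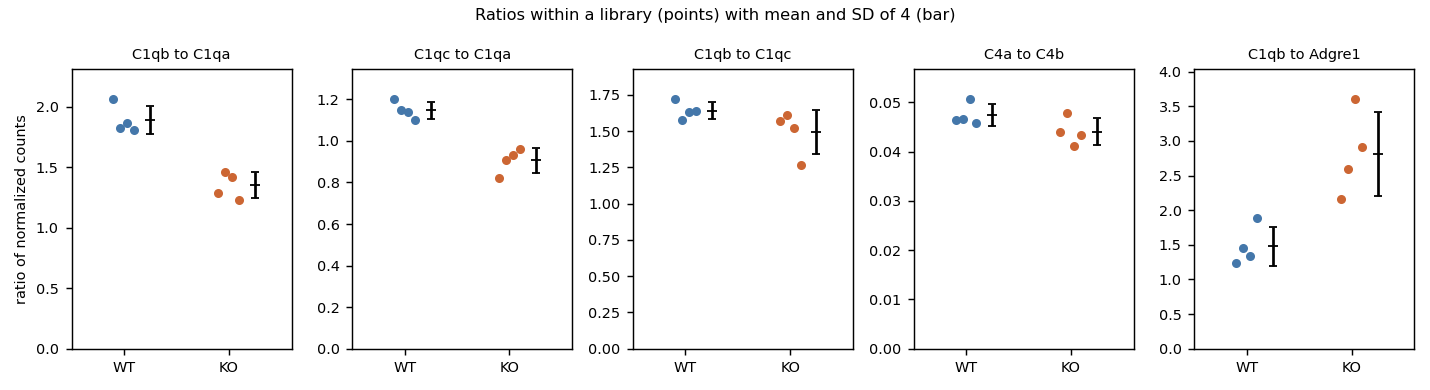
Ratios of normalized counts within a library, on linear axes from 0, for 4 WT (blue) and 4 KO (orange) libraries, with the mean and SD of each group in black. C1qb to C1qa sits at 1.81 to 2.06 in WT against 1.23 to 1.46 in KO, while C4a to C4b overlaps between the groups.

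Macrophage markers fell alongside C1q. Of 8 markers, 7 were lower in KO and 0 higher, with summed normalized counts of 84969.6 to 207831.7 in WT against 28743.4 to 44011.5 in KO, and no marker was at 0. Lyz2 alone supplied much of these sums, at 35743.5 to 125555.4 in WT and 14605.1 to 25077.3 in KO. Of 5 markers of resident-type macrophages, 3 rose and 2 fell, with sums of 10780.4 to 15916.4 in WT against 10824.2 to 12917.3 in KO. The part of macrophage content in the C1q values was not tested.

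Among the other genes of the classical and lectin pathways only C2 passed, and none was tested against C1q. With the C1q chains, 36.4% of the 11 genes of this role passed, against 41.7% of all genes tested. C2, the protease part of the classical C3 convertase, rose. It lies on chromosome 17 at 34862604 to 34898265 and had normalized counts of 618.3, 795.3, 748.2 and 941.9 in WT and 1630.6, 1270.7, 2500.2 and 2518.9 in KO. All KO libraries were above all WT libraries, at a log2 fold change of 1.31 (limma adjusted p = 0.00334, SE 0.24). C1s1, the protease C1s, was 6895.2 to 10584.0 in WT against 7517.6 to 11773.4 in KO, with a log2 fold change of -0.04 (95% confidence interval -0.44 to 0.37). C1ra, the protease C1r, had a log2 fold change of -0.34 (95% confidence interval -0.91 to 0.22) and the C1r-like C1rl one of 0.50 (-0.05 to 1.05). None of these 3 passed, and the sign of C1s1 turned with single libraries left out. The ratio of C1s1 to C1ra overlapped, at 1.57 to 1.79 in WT and 1.75 to 2.46 in KO. A two-sided exact permutation test gave p = 0.0857 for it (adjusted p = 0.137 over 16 ratios). C1ra and C1s1 have close copies, C1rb and C1s2, between which reads may have been split, and C1s1 shares 576 exon bases with an antisense gene.

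C4 was measured as C4b, the main mouse C4 gene, and its copy C4a on chromosome 17. C4b was 31722.8, 54176.8, 36157.2 and 52970.5 in WT and 29747.4, 51118.9, 32934.8 and 34376.6 in KO. C4a was 1469.5, 2530.2, 1830.6 and 2426.0 in WT and 1305.4, 2445.7, 1356.5 and 1488.0 in KO. Neither passed, with log2 fold changes of -0.23 (95% confidence interval -0.77 to 0.30) for C4b and -0.34 (-0.89 to 0.21) for C4a. Within a library, C4a stood at 4.12% to 5.06% of C4b, so both were high in WT replicates 2 and 4 and in KO replicate 2. How reads shared by such near-identical genes were assigned is not given in the sources used here, and both values are uncertain to that extent.

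The lectin pathway proteases were low. Masp1 lay at 38.5 to 144.8 in WT libraries and at 95.4 to 201.7 in KO libraries, and its log2 fold change of 0.68 (SE 0.44) did not pass. Masp2 was 11.9, 5.8, 102.1 and 2.8 in WT and 20.7, 25.6, 12.9 and 12.1 in KO, so that WT replicate 3 alone held a high value. Its log2 fold change was 0.40 with that library (limma adjusted p = 0.749) and 1.38 without it (limma adjusted p = 0.0728). Masp2 also shares 1817 of its 3307 exon bases with Tardbp on the opposite strand.

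**Figure D2:**
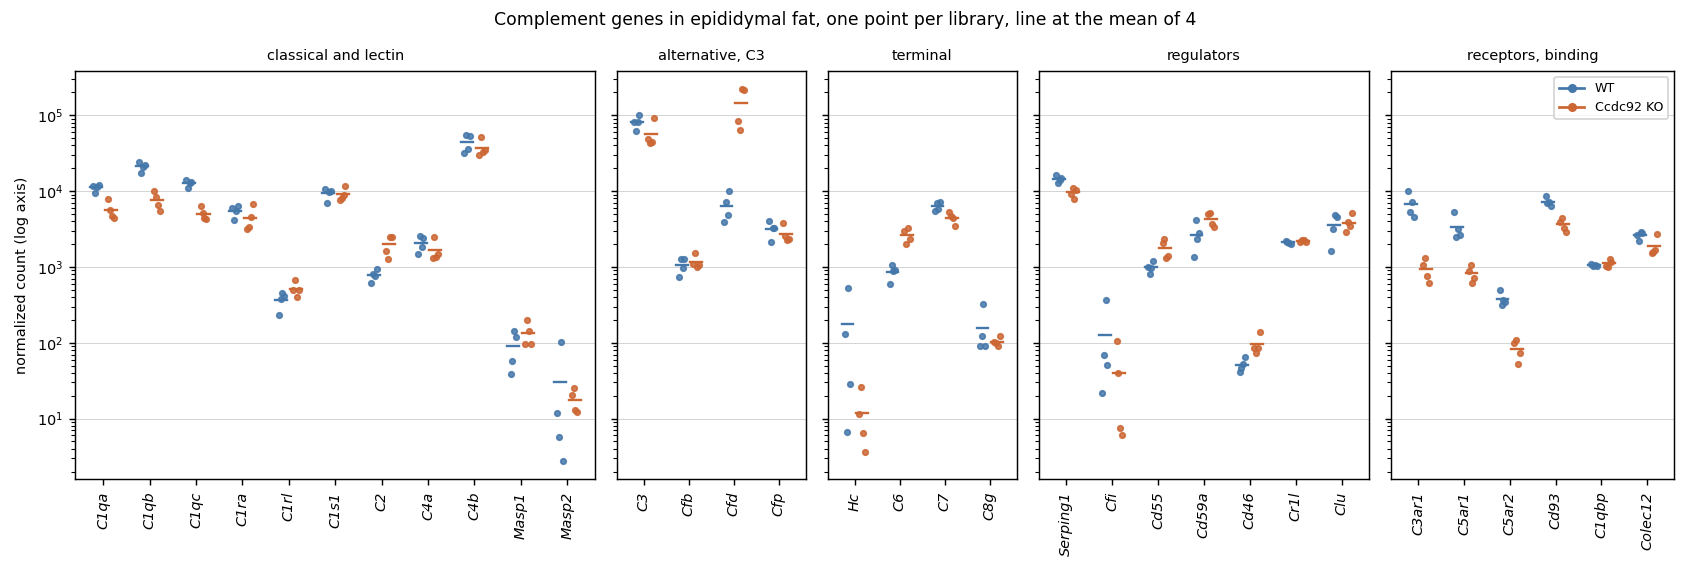
Normalized counts of the 32 complement genes by role, on a log axis, with 1 point per library (WT blue, KO orange) and a line at the mean of 4. Cfd is the gene with the largest gap between groups, and C1q chains and anaphylatoxin receptors sit lower in KO without overlap.

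In the alternative pathway 1 of 4 genes passed the test, 25% called against 41.7% of all genes tested. So few genes do not allow the shares to be compared. Cfd, the protease factor D that cleaves factor B, was 3854.6, 7162.5, 4811.4 and 9912.8 in WT replicates 1 to 4 and 83579.2, 63276.5, 220687.9 and 212801.3 in KO replicates 1 to 4. The lowest KO library was thus well above the highest WT library, and within KO the values of replicates 3 and 4 stood above those of replicates 1 and 2. The gene lies on chromosome 10 at 79890853 to 79892655. Its log2 fold change was 4.38 (limma adjusted p = 0.000524, SE 0.47), a fitted 20.8-fold rise. Cfd took 0.0141% to 0.0371% of all assigned reads in WT and 0.219% to 0.741% in KO. Per kilobase of exon, Cfd was the fifth most abundant of the 32 genes in WT, at a mean normalized count of 6979.7 per kilobase, and the most abundant in KO, at 157360.3.

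Cfd was also set against the main adipocyte hormone. The ratio of Cfd to Adipoq, which encodes adiponectin, was 0.253 to 0.394 in WT against 0.898 to 2.46 in KO (two-sided exact permutation p = 0.0286, adjusted p = 0.0762 over 16 ratios). Of 8 adipocyte markers 7 were higher in KO and 0 lower, with sums of 154857.4 to 331209.8 in WT against 783716.0 to 946285.9 in KO. The ratio of Cfd to each of the 8 was higher in KO without overlap. For the muscle and fat carbonic anhydrase Car3 it was at most 0.126 in WT and at least 0.167 in KO, and for the adipocyte regulator Pparg at most 3.47 in WT and at least 13.3 in KO. Car3 alone supplied much of the marker sums, at 59081.8 to 120139.9 in WT and 378958.2 to 554486.3 in KO. The part of adipocyte content in the Cfd values was not tested.

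**Figure D3:**
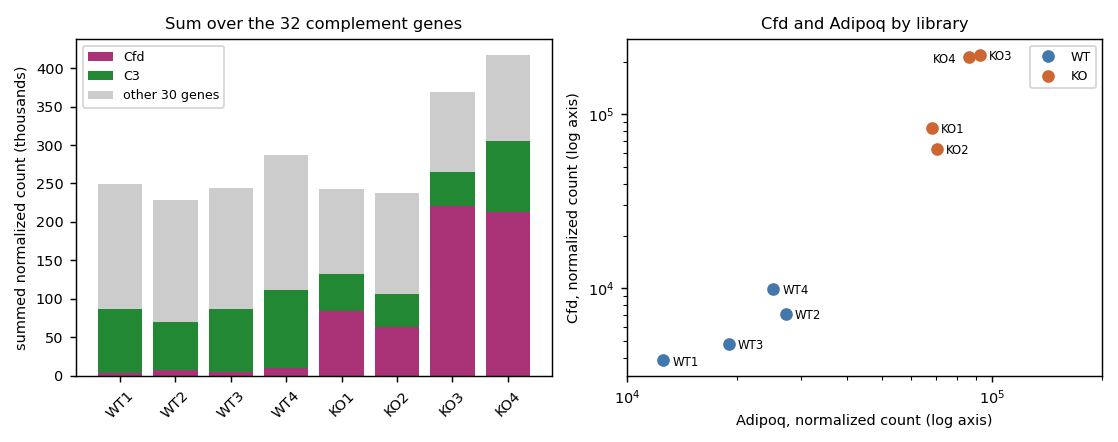
Left, summed normalized count of the 32 genes in each library, split into Cfd, C3 and the others (bars from 0). Right, Cfd against Adipoq on log axes, where KO libraries at a Cfd of 63276.5 or more lie above WT libraries at 9912.8 or less.

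C3, the component on which all pathways act, was 82464.3, 62044.3, 81620.7 and 101353.9 in WT and 48174.7, 42812.7, 43869.7 and 92099.9 in KO. KO replicate 4 lay among the WT libraries and the other KO libraries lay below them. The log2 fold change was -0.59 (SE 0.27) and did not pass (limma adjusted p = 0.112), but without KO replicate 4 it was -0.85 and passed (limma adjusted p = 0.0114). It also passed under quantile normalization (-0.92, limma adjusted p = 0.0295), with library weights (-0.71, limma adjusted p = 0.00927) and with the replicate block (-0.59, limma adjusted p = 0.0492). KO replicate 4 also had the highest sum of 6 mesothelial markers, 14497.2 against 2094.5 to 6019.4 in the other KO libraries and 1572.3 to 8337.0 in WT. The part of that tissue in the C3 value was not tested. C3 supplied 27.1% to 35.2% of the summed level of the 32 genes in WT and 11.9% to 22.1% in KO, while Cfd supplied 1.55% to 3.45% and 26.6% to 59.9%.

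Cfb, factor B, was 728.4 to 1277.1 in WT against 994.3 to 1524.5 in KO, a log2 fold change of 0.15 (95% confidence interval -0.32 to 0.62). Cfp, properdin, which stabilises the alternative convertase, was 2115.7 to 4049.1 in WT against 2287.4 to 3839.2 in KO, a log2 fold change of -0.20 (95% confidence interval -0.72 to 0.32). Cfb sits beside C2 on chromosome 17 at 34856374 to 34862518, and Gm20547, a gene annotated across both, shares 2246 of the exon bases of Cfb and 1656 of those of C2. How reads in that overlap were assigned is not known, so the different behaviour of C2 and Cfb holds only for the reads counted to each.

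The terminal genes split. C6, which joins C5b in the membrane attack complex, rose. It was 595.3, 1067.5, 882.8 and 904.5 in WT and 2979.7, 1998.8, 3243.0 and 2345.5 in KO. Every KO library was above every WT library (log2 fold change 1.62, limma adjusted p = 0.000878, SE 0.21). C7, the next subunit, fell slightly. It was 5445.2 to 7075.8 in WT against 3477.0 to 5260.7 in KO, a log2 fold change of -0.50 (limma adjusted p = 0.0237, SE 0.15). That call was lost without KO replicate 3 (limma adjusted p = 0.0506), WT replicate 2 (0.0562), WT replicate 4 (0.0565) or without both WT replicate 4 and KO replicate 3 (0.101), and with the replicate block (0.0652). Both genes lie on chromosome 15, C6 at 4727175 to 4814967 and C7 at 4988762 to 5063740, and C7 remained the higher of the pair per kilobase of exon in both groups, at mean normalized counts of 2364.3 against 242.6 in WT and 1674.8 against 742.9 in KO.

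Hc, which encodes C5, and C8g, the C8 gamma chain, were low and uneven. Hc was 132.1, 6.7, 534.7 and 29.0 in WT and 11.5, 26.5, 6.4 and 3.6 in KO. Its log2 fold change of -2.61 (limma adjusted p = 0.118, SE 1.22) became -1.59 without WT replicate 3 (limma adjusted p = 0.255). Hc passed without WT replicate 2 (-3.63, limma adjusted p = 0.0242), with library weights (-4.06, limma adjusted p = 0.0232), in edgeR (-3.79, adjusted p = 0.0407) and in DESeq2 (-3.86, adjusted p = 0.001). All of these settings kept WT replicate 3, the highest library for Hc. C8g was 90.8, 123.1, 324.0 and 91.8 in WT and 101.1, 98.3, 91.4 and 122.5 in KO. Its log2 fold change was -0.39 with WT replicate 3 (limma adjusted p = 0.441) and 0.03 without it (limma adjusted p = 0.929).

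Liver-type complement genes were high in the same library. From a list of 34 other complement genes, 31 were in the table, and 12 of them were highest in WT replicate 3 at 3 times the next library or more. Members that met this were Hc, Cfi and Masp2, and 0 members did so in another library. Named after their values were seen, C8a, another chain of C8, was 250.6 in WT replicate 3 and 0 to 18.8 elsewhere, C9 was 203.3 and 0 to 12.0, and the mannose-binding lectin Mbl2 was 257.1 and 0 to 2.6. The part of liver RNA in these values was not tested. The second highest value of Hc, 132.1, was in WT replicate 1, where Alb was lowest (31.2), and the source of that single value was not tested either.

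**Figure D4:**
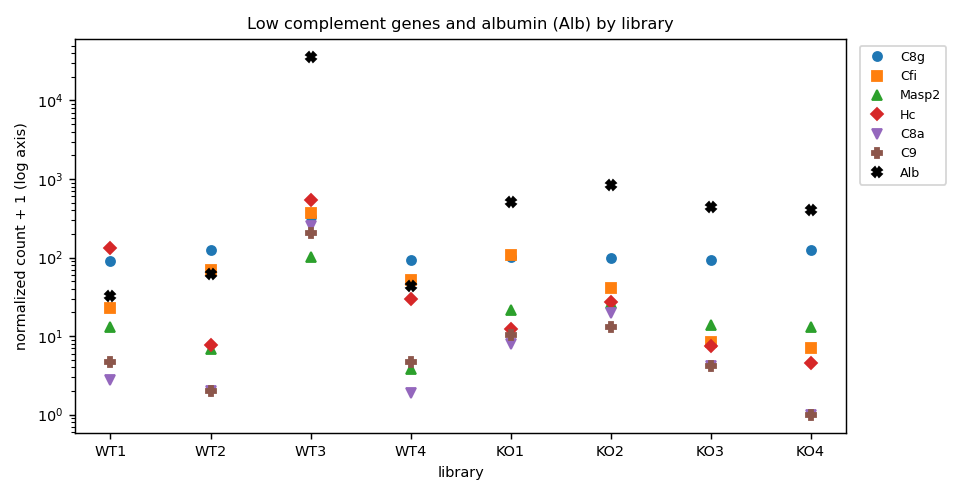
Normalized count plus 1 on a log axis for 6 low complement genes and albumin in each of the 8 libraries. In WT replicate 3, Alb reached 35472.2 and C8g, Cfi, Masp2, Hc, C8a and C9 were each at their highest value.

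Regulators, which keep complement off host cells or end its activity, had 2 genes higher and 1 lower of 7, 42.9% called against 41.7% of all genes tested. Serping1, the C1 inhibitor that disables C1r and C1s, was 12767.2 to 16276.0 in WT against 7841.4 to 11019.4 in KO (log2 fold change -0.60, limma adjusted p = 0.00736, SE 0.13). It fell without overlap between groups. Cd55, decay-accelerating factor, rose from 798.2 to 1191.0 in WT to 1309.2 to 2335.5 in KO (log2 fold change 0.81, limma adjusted p = 0.0133, SE 0.20). Cd46, membrane cofactor protein, whose expression in mice is largely limited to the testis, rose from a low 41.3 to 64.6 in WT to 73.5 to 138.3 in KO (log2 fold change 0.87, limma adjusted p = 0.0191, SE 0.24). Reads of Cd46 may come in part from a transcript on the other strand, A330023F24Rik, which shares 1079 of its exon bases.

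The other regulators did not pass. Cr1l (Crry), the broad membrane regulator of mice, was the steadiest of these, at 2006.5 to 2230.9 in WT and 2132.8 to 2284.2 in KO, with a 95% confidence interval of -0.08 to 0.22 for its log2 fold change of 0.07. Cd59a, which blocks the membrane attack complex, was 1353.0, 4131.3, 2308.7 and 2786.5 in WT and 4972.3, 5215.3, 3674.0 and 3318.1 in KO (log2 fold change 0.78, limma adjusted p = 0.0783, SE 0.32). It passed without WT replicate 2, the highest WT library (1.04, limma adjusted p = 0.0204), and with library weights (0.94, limma adjusted p = 0.009). Clu, clusterin, a fluid-phase inhibitor of the terminal complex, was 1620.0 to 4835.5 in WT against 2901.5 to 5136.0 in KO (log2 fold change 0.20, SE 0.34). Cfi, factor I, which cleaves C3b, was 22.0, 68.3, 366.7 and 51.5 in WT and 106.9, 40.2, 7.5 and 6.1 in KO. Its log2 fold change was -1.71 with WT replicate 3 (limma adjusted p = 0.229) and -0.94 without it (limma adjusted p = 0.491).

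Receptors for the cleavage fragments fell. C3ar1, the receptor for C3a, on chromosome 6 at 122847138 to 122856161, was 10126.3, 5268.0, 7161.8 and 4588.9 in WT and 1044.6, 1319.4, 766.4 and 620.9 in KO. The lowest WT library was above the highest KO library, and the log2 fold change of -2.84 (limma adjusted p = 0.00049, SE 0.30) was the largest fall among the called members. C5ar1 and C5ar2, both receptors for C5a, are neighbours on chromosome 7, at 16246743 to 16259540 and 16234585 to 16244154. C5ar1 was 5254.4, 2511.9, 3133.0 and 2662.9 in WT and 896.3, 1049.4, 619.1 and 715.5 in KO (log2 fold change -2.01, limma adjusted p = 0.000828, SE 0.25). C5ar2 was 491.7, 317.4, 363.9 and 340.8 in WT and 98.8, 107.7, 52.7 and 74.0 in KO (log2 fold change -2.20, limma adjusted p = 0.000538, SE 0.24). WT replicate 1 was the highest library for all 3 receptors and also held the highest macrophage marker sum, 207831.7. Mast cells, which also carry anaphylatoxin receptors, had all 5 of their markers lower in KO, with sums of 3835.2 to 11039.3 in WT against 933.8 to 1267.3 in KO. The part of either cell type in the receptor values was not tested.

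Relative to macrophage markers the receptors, too, depended on the marker. C3ar1 stood at 0.395 to 0.517 of Adgre1 in WT and 0.226 to 0.415 in KO, and C5ar1 at 0.199 to 0.268 and 0.194 to 0.382. Two-sided exact permutation tests gave p = 0.0857 and p = 0.143 (adjusted p = 0.137 and 0.176 over 16 ratios), which does not show that these ratios were alike. Relative to Csf1r, the receptor for macrophage colony-stimulating factor, C3ar1 was 0.285 to 0.481 in WT libraries and 0.0823 to 0.145 in KO libraries. Over the 8 markers, the ratio of C3ar1 was lower in KO without overlap for 4, higher for 1 and overlapping for 3. That of C5ar1 was lower for 3, higher for 2 and overlapping for 3, and that of C5ar2 was lower for 3, higher for 1 and overlapping for 4.

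Cd93, a surface protein of endothelial and myeloid cells once named a C1q receptor, was 8507.2, 6919.2, 7231.4 and 6268.7 in WT and 3942.6, 4464.1, 3282.7 and 2845.1 in KO. Its groups did not overlap, and it was 2.01-fold lower in the fit (limma adjusted p = 0.00166). Endothelial markers were higher in KO in 3 of 6 and lower in 0. Their sums were 12667.3 to 26024.8 in WT against 29830.0 to 33298.2 in KO. Macrophage markers were lower in KO in 7 of 8 and higher in 0. The part of endothelial or myeloid cells in the Cd93 values was not tested. Colec12, a scavenger receptor with a collectin domain, was 2187.8 to 2874.0 in WT against 1513.4 to 2728.7 in KO and just missed the threshold (log2 fold change -0.53, limma adjusted p = 0.0545, SE 0.19). KO replicate 4 was again its highest KO library, and without it Colec12 passed (-0.72, limma adjusted p = 0.00347). Colec12 also passed with library weights (-0.75, limma adjusted p = 0.00192), the replicate block (0.0421) and the filter of 50 (0.0493). The same held without WT replicate 2 (-0.61, limma adjusted p = 0.0464) and in DESeq2 (-0.48, adjusted p = 0.048). C1qbp, a largely mitochondrial protein that binds C1q heads, was 1030.9 to 1086.1 in WT against 1001.5 to 1266.2 in KO (log2 fold change 0.07, 95% confidence interval -0.13 to 0.27).

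**Figure D5:**
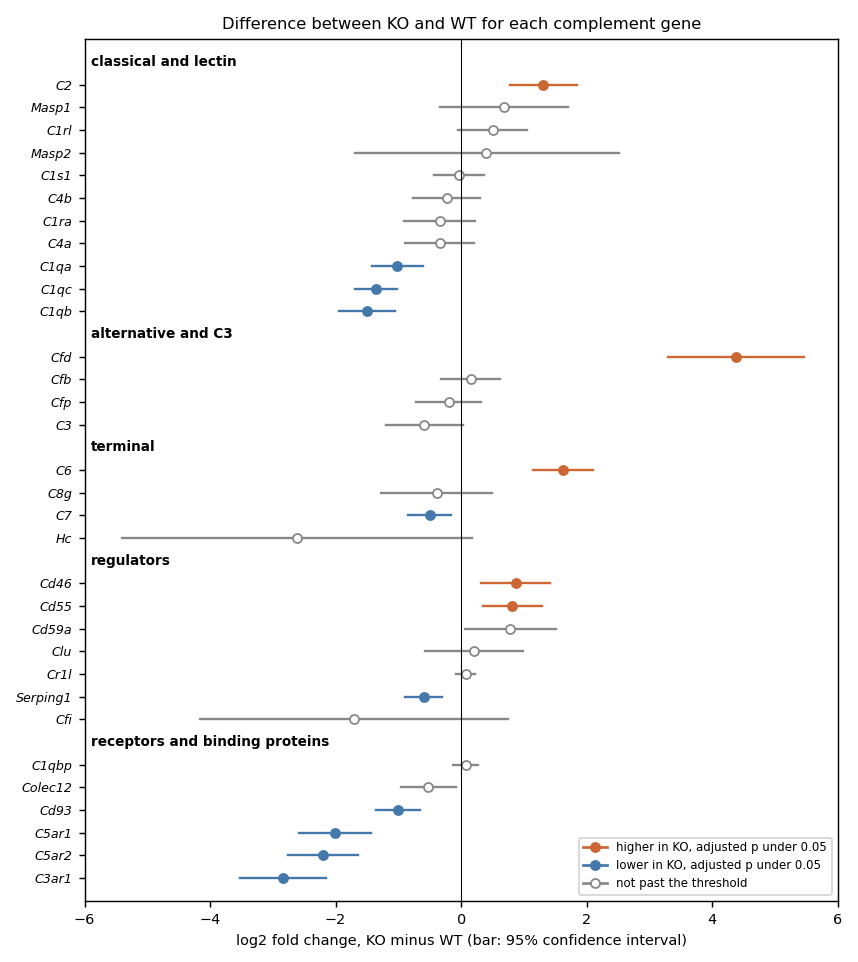
Log2 fold change, KO minus WT, with its 95% confidence interval for each of the 32 genes by role. Filled points passed limma's adjusted threshold (5 higher in orange, 9 lower in blue), open grey points did not, and the widest intervals belong to Hc, Cfi and Masp2.

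Among the other complement genes, 20 reached the filter, of which 1 rose and 6 fell, with a median log2 fold change of -0.69. That is 35% called, below the 41.7% of all genes tested. The shared beta chain of complement receptors 3 and 4, Itgb2, fell (log2 fold change -2.82), as did their alpha chains Itgam (-1.99) and Itgax (-3.70), which bind inactivated C3b. Vsig4, a macrophage receptor for C3b, fell (-1.13), and so did Calr, a chaperone that also binds C1q (-0.70), with limma adjusted p of 0.000737 to 0.0298 over these 5. C4bp, the C4b-binding protein, fell by 5.72 on the log2 scale, from 918.2, 2472.5, 2629.9 and 101.1 in WT to 6.9, 30.8, 67.7 and 3.6 in KO. Of 6 epididymal markers, Crisp1, Defb42 and Spink8 fell, Crisp1 from 26574.7 or more in WT to 37.6 or less in KO. Adam7 did not pass, with 0.9 in WT replicate 4 and 7804.6 or more in the other WT libraries, and Lcn8 and Lcn9, below the filter, were highest in KO replicate 3 (107.5 and 55.9). The part of tract tissue in the C4bp value was not tested. Cd59b, a copy of Cd59a, rose (0.92, limma adjusted p = 0.0333).

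Genes known from stromal cells offer a further comparison, since C1r, C1s, C3, C7 and Serping1 are produced by fibroblasts. Fibroblast and progenitor markers fell in 4 of 7 and rose in 0, with sums of 161016.8 to 255749.7 in WT against 74773.0 to 151031.4 in KO. The collagen gene Col3a1 supplied much of these sums, at 94361.3 to 164606.6 in WT and 27772.0 to 92972.8 in KO. Relative to decorin (Dcn), a matrix gene that did not pass the test (log2 fold change -0.13), Serping1 was 0.436 to 0.497 in WT libraries and 0.254 to 0.432 in KO libraries. Relative to lumican (Lum), a matrix gene that fell, it was 2.03 to 2.74 in WT libraries and 3.22 to 8.79 in KO libraries, the opposite direction. Over the 7 markers, the ratio of Serping1 was lower in KO without overlap for 3, higher for 2 and overlapping for 2. That of C1ra overlapped for all 7, that of C1s1 was higher for 3 and overlapped for 4, that of C3 was lower for 2 and overlapped for 5, and that of C7 was lower for 1 and overlapped for 6. The part of stromal content in these values was not tested.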

How the data were processed

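The deposited values are a signal, reads per gene divided by a library factor. Per the submitters' processing notes, STAR 2.7.7, DESeq2 and GRCm38.p6 are listed, with no role assigned. Which counter was used, its strand setting and how shared reads were handled is not given in the sources used here. Within a library 100.0% of the values above 0 were whole multiples of 1 step (tolerance 0.01 read), which gave whole reads. The implied factors (0.8246 to 1.1702) equalled recomputed median-of-ratios factors. Of the identifiers, 24802 matched GENCODE M21 without version.

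limma 3.58.1 (R 4.3.3) was run on log2(normalized count + 1), which understates changes of low genes, with group alone, variance trend and robust moderation, on genes with at least 10 in 4 libraries. P-values were adjusted by Benjamini-Hochberg over all 17798 genes. edgeR 4.0.16 and DESeq2 1.42.0 on recovered reads, other scalings, pseudocounts, filters, library weights, a replicate block and left-out libraries were alternatives. Counts were also simulated for KO against WT, with 200 genes changed and 17570 genes tested. There the fit called 6.0% of genes changed 1.5-fold, 44.0% at 2-fold, 84.0% at 4-fold and 6 of 17373 unchanged genes. In the data 7423 genes were called. The adjusted threshold is stricter when few genes change, so these shares do not give the recovery in the data.

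The members and lists were chosen with earlier results of these data known. All 32 members are reported, with every library's value for those called at 2-fold or more, the C1q chains, C4a and C4b. Every library's value is also given for C3, Hc, C8g, Cfi, Masp2 and Cd59a, chosen after their values were seen. Of the other complement genes, called ones are named. Levels between genes use the union exon length. No label ties a library to a separate animal, so the p-values reflect only how these libraries vary, which may be technical.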

Additional observations from a re-analysis of the deposited data

Results flagged for a closer look

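In 6 of 64 groups of 4 libraries, 1 library lay apart from the others by more than Dixon's 95% critical share of the group's range, which chance gives in about 1 in 20 groups. In WT replicate 3, Masp2 was 102.1 (nearest 11.9), C8g 324.0 (nearest 123.1) and Cfi 366.7 (nearest 68.3). In KO replicate 4, C3 was 92099.9 (nearest 48174.7) and Colec12 2728.7 (nearest 1673.6). In KO replicate 2, C4a was 2445.7 (nearest 1488.0).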

How the results depend on the processing

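Over 19 alternatives the count of called members ran from 13 to 20, against 14. With each library left out in turn it ran from 13 to 16, and over all genes from 5641 to 7079. Of the 14 called members, 13 passed in every alternative and 0 changed direction, C7 being the exception. Of the 18 others, 6 passed in at least 1 alternative: C3, Hc, Cd59a, Colec12, C1ra and C8g, the last 2 with library weights alone (-0.56 and -1.16). Library weights gave the highest count (20), DESeq2 16 and edgeR 15. Over all genes, library weights called 9767 of 17798, DESeq2 8336 of 17661 and edgeR 7435 of 17798, against 7423 in the fit reported above. The replicate block gave 15 members and 6266 genes. Correlations of deviations were -0.14 to 0.17 for same-numbered libraries and -0.24 to 0.18 for the other pairs of a WT and a KO library. That shows no pairing by number but, with so few pairs, cannot exclude it. Signs turned in 5 uncalled members, and the cause was not tested. C1s1 was -0.17 without KO replicate 4, 0.05 without KO replicate 1, 0.01 without KO replicate 2, 0.03 without WT replicate 1, 0.00 without WT replicate 4 and 0.01 without WT replicate 4 and KO replicate 3. C8g was -0.58 without WT replicate 1 and 0.03 without WT replicate 3. Cfb was -0.02 without WT replicate 1 and 0.32 without WT replicate 4 and KO replicate 3. Clu was -0.30 with library weights, -0.14 without WT replicate 1 and 0.41 without WT replicate 4 and KO replicate 3. Masp2 was -0.74 in edgeR, -1.12 with library weights, 1.38 without WT replicate 3, -0.21 without WT replicate 4 and -0.08 without WT replicate 4 and KO replicate 3. Hc and Masp2 fell below the stricter filter of 50. Ccdc92 kept its call in every alternative. Few reads limit the precision for Hc, Masp2 and Cfi, with 3, 3 and 5 reads in their lowest libraries (SE 1.22, 0.92 and 1.07). Reads of Cd46 were also few, at 45 to 114, with an SE of 0.24.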
